A study of Homo sapiens with 8 samples.

Results

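The 4 libraries grown without doxycycline, out of 8 in the series, were compared between the cell lines: shEXOSC3 on days 5 and 7 against shNS on days 5 and 7, paired by day. H1 is an established human embryonic stem cell line, and both lines are H1 cells that carry a doxycycline-inducible short hairpin RNA. In shEXOSC3 the hairpin is directed against EXOSC3, and in shNS it is non-silencing. The groups were shEXOSC3 without doxycycline on day 5, shEXOSC3 without doxycycline on day 7, shNS without doxycycline on day 5 and shNS without doxycycline on day 7, with 1 library each. All groups were grown feeder-free on Matrigel in a medium with puromycin, and none of these 4 received doxycycline. The labels do not say whether each line is 1 clone or a pool of cells. The other 4 libraries are the same lines on the same days with doxycycline, and none of them is in the untreated comparison. Each comes from the same line, day and deposited table as 1 untreated library, so they are no independent check of line or table. The comparison asks how far the lines already differed before the hairpin was induced, and whether EXOSC3 was lower in the shEXOSC3 line without induction. Of 25558 gene symbols in the deposited tables, 12428 were measured, meaning a mean of at least 1 FPKM over the 4 untreated libraries and no short RNA gene.

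The RNA exosome is a multi-subunit complex that trims and degrades RNA from its 3′ end in the nucleus and the cytoplasm, and EXOSC3 is one of the subunits that form its cap. Its nuclear substrates include precursors of small nucleolar RNAs, antisense and promoter-upstream transcripts and many long noncoding RNAs. An inducible hairpin is meant to stay off without doxycycline, but such promoters can leak. Human embryonic stem cell lines kept apart in culture can also come to differ in gene activity or copy number.

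All values are FPKM, fragments per kilobase of transcript scaled for library size by a rule that is not given, summed over the transcripts of a symbol. Each line and day sits in a table of its own that was normalized separately, so levels are set here across tables, and line and table cannot be told apart. With 1 library per group there was no replicate check and no p-value; the days are time points. In bulk RNA, fewer cells that express a gene and less RNA per cell cannot be told apart. The difference used throughout is log2((shEXOSC3 FPKM + 1)/(shNS FPKM + 1)) of the same day, less the median of all measured genes on that day, and is called the centred difference. It understates differences of low genes. Values given in pairs are those of day 5 and day 7, in that order, unless another order is named. FPKM summed to between 675742 and 767679 per untreated library, and 11759 to 12091 genes reached 1 FPKM. The 3 most abundant transcripts held 26.1% and 27.6% of FPKM on day 5 and 6.52% and 7.16% on day 7. Total depth is unknown, but the spacing of low values put the shEXOSC3 library at 0.753 times the depth of its shNS partner on day 5 and at 1.40 times on day 7. The estimate is rough, since the peak it rests on held 18.1% and 15.8% of the genes used for it.

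The stem cell label held in both lines. POU5F1, the central pluripotency factor, was at 164 and 171 FPKM in shEXOSC3 and at 165 and 171 FPKM in shNS on days 5 and 7. SOX2 was at 253 and 253 FPKM in shEXOSC3 against 214 and 262 FPKM in shNS. NANOG was at 18.8 and 30.8 FPKM against 21.0 and 32.6 FPKM. CRIPTO (TDGF1), the nodal co-receptor, was at 304 and 246 FPKM against 289 and 258 FPKM. All 24 pluripotency genes were measured, with median centred differences of 0.03 on day 5 and -0.01 on day 7 and a range of -0.28 to 0.27. TBXT, SOX17, CDX2, HAND1, SOX1 and DCN, which define mesendoderm, endoderm, trophectoderm, early mesoderm, neuroectoderm and fibroblasts, stood between 0 and 0.189 FPKM in all 4 libraries. PAX6 stood between 0.217 and 0.350 FPKM. COL1A1, a collagen of stromal cells, was higher and differed mainly between days, with 4.52 and 20.03 FPKM in shEXOSC3 and 5.34 and 16.2 FPKM in shNS. Of the marker lists of other cells, 3 of 16 mesendoderm, 4 of 13 endoderm, 6 of 14 mesoderm, 5 of 16 neuroectoderm, 4 of 16 trophectoderm and 9 of 15 fibroblast genes were measured, and 0 were past 1.5-fold on both days, against 0.306% of all measured genes.

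EXOSC3 was slightly lower in the untreated shEXOSC3 line on both days. Its summed level was 25.2 FPKM in shEXOSC3 and 27.3 FPKM in shNS on day 5, and 25.2 and 30.3 FPKM on day 7. The shEXOSC3 level was thus 92.2% of the shNS level on day 5 and 83.3% on day 7, with centred differences of -0.125 and -0.27. Of all measured genes, 22.7% lay lower than EXOSC3 on day 5 and 6.53% on day 7. With doxycycline the levels were 11.3 and 12.3 FPKM in shEXOSC3 and 27.8 and 27.4 FPKM in shNS, or 40.7% and 44.99%, with centred differences of -1.21 and -1.10. The untreated difference was thus small beside that of the induced libraries. The locus is on chromosome 9 from 37779711 to 37785089 (hg19), and 2 of its transcripts are listed. NM_016042, the abundant one, was at 24.5 and 25.2 FPKM in shEXOSC3 and at 26.9 and 27.6 FPKM in shNS. NM_001002269 was at 0.627 and 0 FPKM in shEXOSC3 and at 0.415 and 2.68 FPKM in shNS. NM_016042 alone had centred differences of -0.14 and -0.14, so the larger day 7 difference of the sum comes from the low transcript. Uninduced hairpin, the line and the table cannot be told apart as its source.

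The other exosome genes did not lie to one side. Of 14 measured subunits and close partners, 3 lay above 0 and 4 below it on both days, while 7 changed side. For all 12428 genes these shares were 24.5%, 24.5% and 51%. The medians were 0.04 on day 5 and -0.09 on day 7, and every member lay between -0.27 and 0.29. EXOSC6, a ring subunit, was at 12.2 and 11.5 FPKM in shEXOSC3 and 13.3 and 13.0 FPKM in shNS. The catalytic subunit DIS3 was at 22.7 and 33.1 FPKM against 20.2 and 32.4 FPKM, and the nuclear nuclease EXOSC10 at 37.5 and 48.9 FPKM against 37.1 and 50.2 FPKM. C1D, a nuclear partner of the complex, was at 11.9 and 17.3 FPKM against 10.7 and 13.7 FPKM, centred differences of 0.13 and 0.29. Among 13 cofactors that bring RNA to the exosome, 3 were above 0 and 5 below 0 on both days, with medians of -0.04 and -0.04. Their ends were TENT4A, a noncanonical poly(A) polymerase, at -0.47 and 0.05, and RBM7, an RNA-binding subunit of the nuclear exosome targeting complex, at 0.12 and 0.11.

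**Figure D1:**
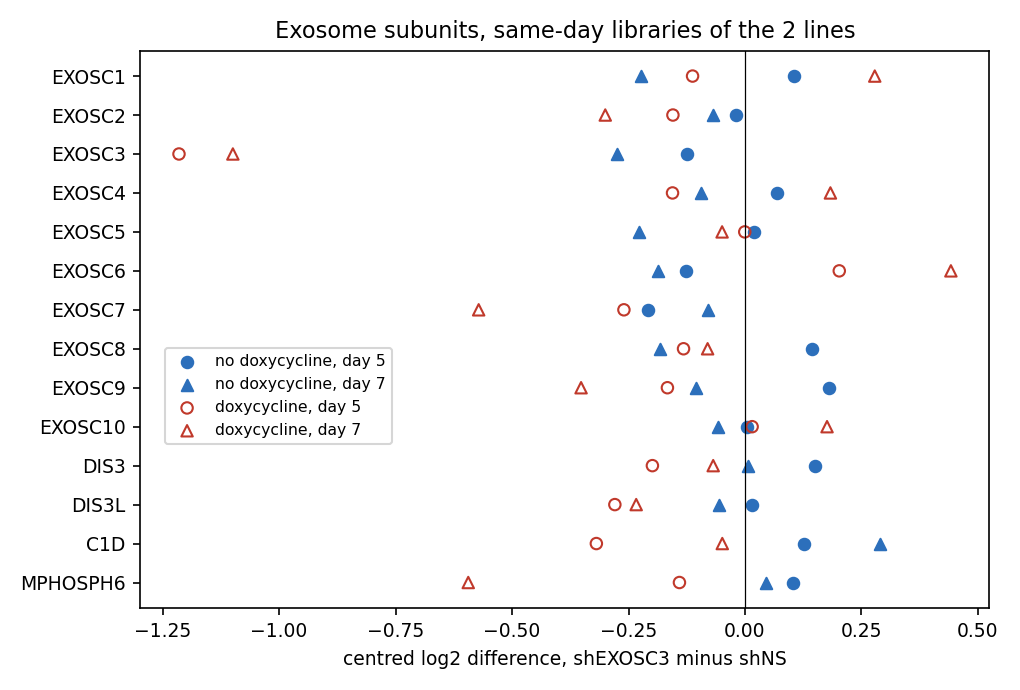
Centred log2 difference of shEXOSC3 minus shNS (x axis) for the 14 exosome subunits and partners (y axis), with 1 library per line and day. Filled points are the untreated libraries of day 5 (circles) and day 7 (triangles) and open points the doxycycline libraries; untreated EXOSC3 sits at -0.125 and -0.27, and at -1.21 and -1.10 with doxycycline.

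Across the transcriptome the untreated lines were close. On day 5, 98.6% of measured genes lay within 1.5-fold and on day 7, 98.2%, with SDs over genes of 0.215 and 0.212 on the log2 scale. The interquartile range was -0.11 to 0.11 on day 5 and -0.10 to 0.10 on day 7. Across genes, which are not independent, the day 5 and day 7 differences had a Pearson r of 0.12 and a Spearman rho of -0.01. The rank order of the genes on one day thus had almost no relation to that on the other. On single days, 40 genes (0.322%) were 2-fold apart on day 5 and 34 (0.274%) on day 7. Between the days of 1 line, 2593 genes (20.9%) in shEXOSC3 and 2201 (17.7%) in shNS were 2-fold apart. Those counts also hold the different composition of the day 5 and day 7 libraries. Between doxycycline and none within shEXOSC3, 110 genes (0.885%) were 2-fold apart on day 5 and 130 (1.05%) on day 7. Within shNS the counts were 28 (0.225%) and 50 (0.402%).

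**Figure D2:**
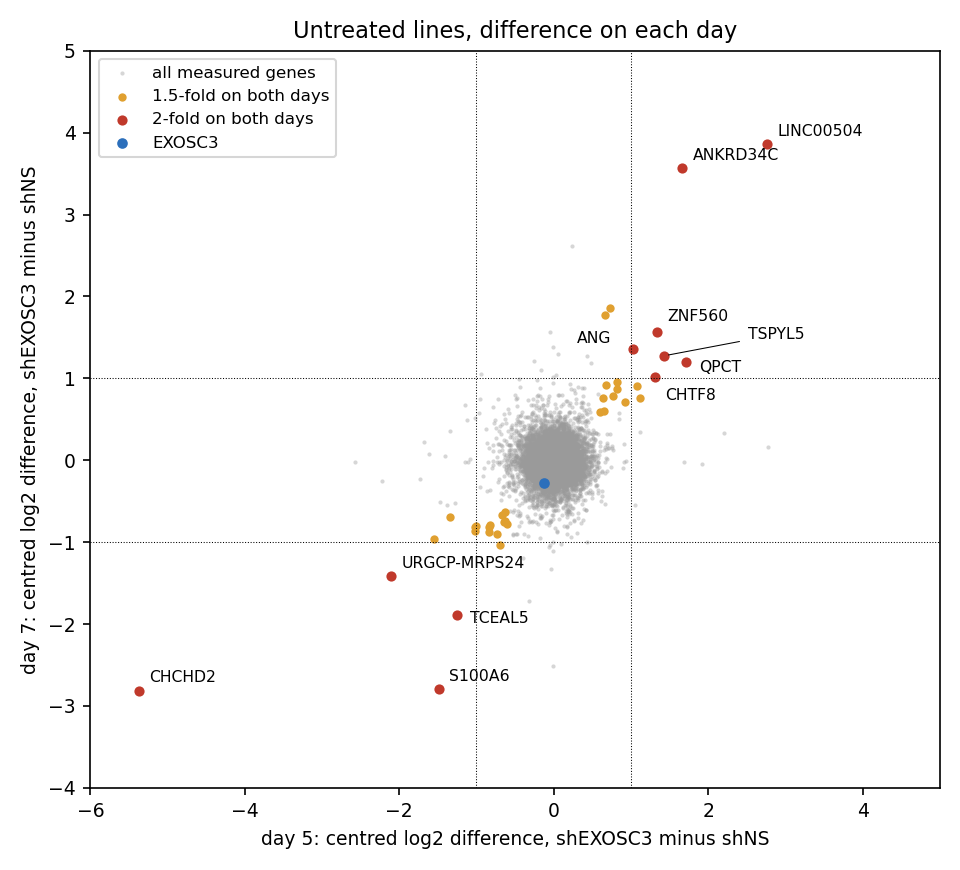
Centred log2 difference of shEXOSC3 minus shNS in the untreated libraries of day 5 (x axis) and day 7 (y axis), 1 point per measured gene, with dotted lines at 2-fold. The 11 red points are past 2-fold on both days, the orange points past 1.5-fold, and EXOSC3 (blue) lies among the other genes.

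A 2-fold difference in the same direction on both days was found for 11 of 12428 genes (0.0885%). Of these, 7 (0.0563%) were higher in shEXOSC3 and 4 (0.0322%) lower, and 0 were past 2-fold in opposite directions. The 7 higher genes were LINC00504, ANKRD34C, QPCT, ZNF560, TSPYL5, ANG and CHTF8. The 4 lower genes were CHCHD2, S100A6, TCEAL5 and the readthrough gene URGCP-MRPS24. The members just inside the limit were CHTF8 (1.02 on the weaker day) and ANG (1.03), and those just outside were CRYZL1 (-0.97) and DNAJC15 (0.90).

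CHCHD2, a protein of the mitochondrial intermembrane space that also acts in the nucleus, had the lowest centred difference of all measured genes. It was listed at 0 FPKM on day 5 and at 0.0789 FPKM on day 7 in untreated shEXOSC3, against 40.2 and 6.48 FPKM in shNS. With doxycycline it was at 0.187 and 0 FPKM in shEXOSC3 and at 48.6 and 7.54 FPKM in shNS. The 4 shEXOSC3 libraries were thus at or near 0 and the 4 shNS libraries were not. No fold is given, since shEXOSC3 is listed at 0. CHCHD2 lies on chromosome 7 from 56169266 to 56174187 (hg19). Its paralog CHCHD10 was detected in both lines, with 52.2 and 22.2 FPKM in shEXOSC3 and 34.9 and 17.2 FPKM in shNS. S100A6, a small calcium-binding protein of chromosome 1 (153507076 to 153508717), was at 5.16 and 1.41 FPKM in shEXOSC3 and at 16.2 and 15.5 FPKM in shNS, centred differences of -1.49 and -2.80. With doxycycline S100A6 was at 5.48 and 5.23 FPKM against 18.2 and 13.1 FPKM, so the lines did not overlap in any of the 8 libraries. Of these 8, the 4 untreated libraries are those by which the gene was called. The share of all measured genes without overlap is not given here.

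TCEAL5, an X-linked gene of the transcription elongation factor A-like family, was at 0.959 and 0.151 FPKM in shEXOSC3 and at 3.61 and 3.20 FPKM in shNS. Its centred differences were -1.25 and -1.89. With doxycycline it was at 0.536 and 0.381 FPKM against 2.89 and 1.81 FPKM. URGCP-MRPS24 is a transcript that reads through from URGCP into MRPS24, so the division of reads with both genes makes it uncertain. It was listed at 0 and 2.25 FPKM in shEXOSC3 and at 3.28 and 7.53 FPKM in shNS.

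The largest excess in shEXOSC3 was that of LINC00504, a long noncoding RNA on chromosome 4 (14472090 to 14889793, hg19). It was at 10.5 and 17.4 FPKM in untreated shEXOSC3 and at 0.684 and 0.245 FPKM in shNS, centred differences of 2.76 and 3.86. With doxycycline it was at 8.76 and 14.4 FPKM against 0.642 and 0.322 FPKM. ANKRD34C encodes an ankyrin repeat protein, and its listed locus on chromosome 15 (79484049 to 79590581) can span more than the gene. It was at 3.56 and 11.8 FPKM against 0.428 and 0.0657 FPKM, centred differences of 1.66 and 3.56. ANKRD34C with doxycycline was at 3.81 and 8.12 FPKM against 0.461 and 0.00985 FPKM. Both genes were low in every shNS library and, in shEXOSC3, higher on day 7 than on day 5.

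ZNF560 encodes a KRAB zinc finger protein on chromosome 19 (9577031 to 9609279). It was expressed in both lines, with 9.16 and 24.8 FPKM in shEXOSC3 and 2.98 and 7.57 FPKM in shNS, centred differences of 1.34 and 1.57. The day 7 level was above the day 5 level in both lines, and on each day shEXOSC3 was the higher one. QPCT, the enzyme that cyclizes N-terminal glutamine, was at 2.69 and 1.55 FPKM against 0.115 and 0.0913 FPKM. TSPYL5, of the nucleosome assembly protein family, was at 3.40 and 2.60 FPKM against 0.616 and 0.467 FPKM. For QPCT, TSPYL5, LINC00504, ANKRD34C and ZNF560, all 4 shEXOSC3 libraries lay above all 4 shNS libraries. The untreated libraries among them are again those used for the call, and the share over all measured genes is not given.

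ANG and CHTF8 were less regular. ANG, the secreted ribonuclease angiogenin that cleaves tRNAs, was at 12.5 and 5.33 FPKM in shEXOSC3 and at 5.56 and 1.44 FPKM in shNS. With doxycycline ANG was at 5.54 and 3.96 FPKM against 5.25 and 1.02 FPKM, so its day 5 difference was 0.08. ANG shares its locus on chromosome 14 (21152336 to 21168761) with RNASE4, so reads of their common exons may be divided between them. RNASE4 had centred differences of 0.21 and 0.21. CHTF8, a subunit of an alternative clamp loader that acts in sister chromatid cohesion, was at 20.4 and 15.2 FPKM against 7.55 and 6.89 FPKM. With doxycycline CHTF8 was at 8.56 and 9.88 FPKM against 2.83 and 10.6 FPKM, a difference of -0.11 on day 7. Both genes have 2 transcripts in the tables, and their levels did not go together: CHTF8 transcript NM_001039690 was listed at 0.00558 FPKM in shNS on day 7 and at 5.55 FPKM on day 5.

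**Figure D3:**
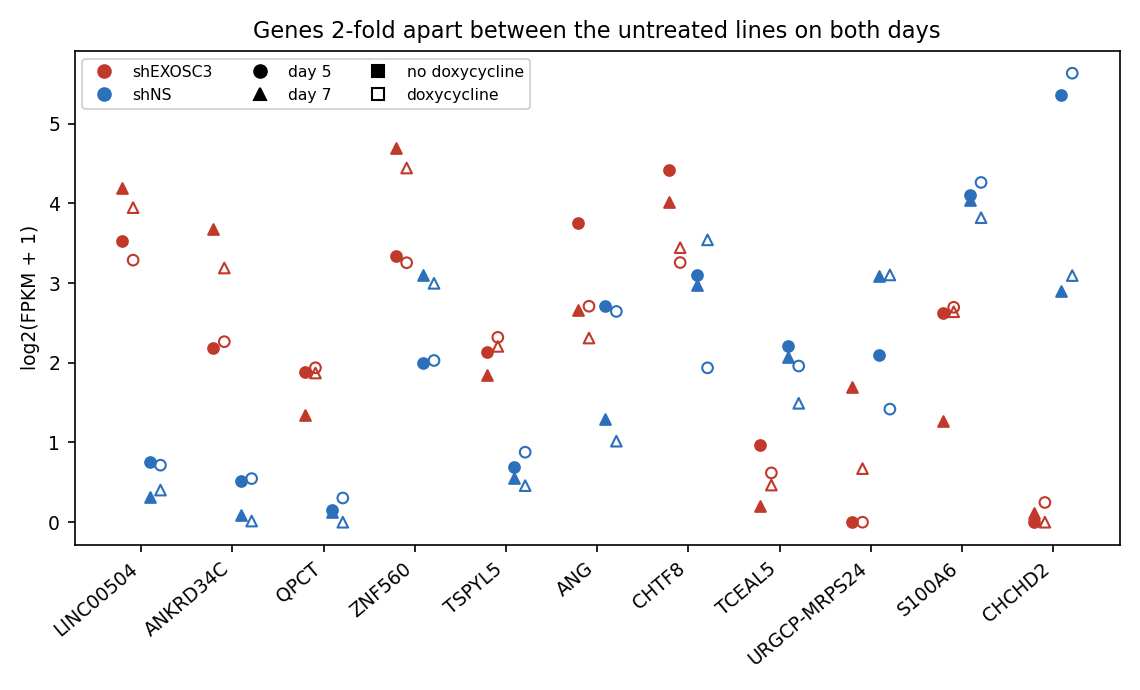
Level as log2(FPKM + 1) (y axis) of the 11 genes past 2-fold on both days (x axis) in each of the 8 libraries, in red for shEXOSC3 and blue for shNS, with filled points for no doxycycline. The lines do not overlap for LINC00504, ANKRD34C, QPCT, ZNF560, TSPYL5, TCEAL5, S100A6 and CHCHD2, and they overlap for ANG, CHTF8 and URGCP-MRPS24. The genes were picked by the untreated libraries shown, and the share of all measured genes without overlap is not given.

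The promoters of the 3 genes below are shown since these genes were near 0 in one line or differed in all 8 libraries. The sequences are the 250 bases before the start, in RefSeq's GRCh38.p14, 5′ to 3′ on the gene's strand, with CG dinucleotides in capitals. CHCHD2 (chr7:56106477-56106726, minus strand) holds 21 CG, S100A6 (chr1:153535992-153536241, minus strand) 24 and ANKRD34C (chr15:79282472-79282721, plus strand) 17.
CHCHD2: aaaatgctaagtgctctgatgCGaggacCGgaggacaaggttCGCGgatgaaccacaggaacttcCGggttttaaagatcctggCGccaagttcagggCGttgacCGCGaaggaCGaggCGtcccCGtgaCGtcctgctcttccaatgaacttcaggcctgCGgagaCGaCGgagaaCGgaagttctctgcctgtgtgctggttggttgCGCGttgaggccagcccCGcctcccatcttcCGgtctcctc
S100A6: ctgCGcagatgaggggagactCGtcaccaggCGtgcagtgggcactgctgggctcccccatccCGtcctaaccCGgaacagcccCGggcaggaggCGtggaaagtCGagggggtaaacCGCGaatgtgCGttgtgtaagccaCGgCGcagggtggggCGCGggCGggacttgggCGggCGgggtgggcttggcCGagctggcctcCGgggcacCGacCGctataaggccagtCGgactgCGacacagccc
ANKRD34C: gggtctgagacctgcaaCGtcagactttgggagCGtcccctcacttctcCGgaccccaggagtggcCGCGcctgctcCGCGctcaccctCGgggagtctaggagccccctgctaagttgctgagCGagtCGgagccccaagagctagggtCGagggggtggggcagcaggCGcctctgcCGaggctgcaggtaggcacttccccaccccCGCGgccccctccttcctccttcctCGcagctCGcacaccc

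A ratio of observed to expected CG of at least 0.6 is a usual mark of a CpG-rich promoter. It was 0.960 for CHCHD2, 0.803 for S100A6 and 0.575 for ANKRD34C. Among the genes not shown, it was 0.624 for QPCT, 0.582 for TCEAL5 and 0.601 for ZNF560. A promoter was found for 9 of the 11 genes, and 7 of these 9 (77.8%) reached 0.6. Of all measured genes with a promoter, 8190 of 10070 (81.3%) did. For the genes past 1.5-fold it was 17 of 28 (60.7%). The letters describe the window only, since methylation was not measured here.

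At 1.5-fold on both days the set held 38 genes (0.306%), 19 higher (0.153%) and 19 lower (0.153%) in shEXOSC3, while 6 (0.0483%) were past 1.5-fold in opposite directions. Of the 38, 28 are protein-coding and 7 are long noncoding RNAs. DNAJC15, a J-domain protein of the mitochondrial inner membrane, was at 14.1 and 12.7 FPKM in shEXOSC3 and at 6.12 and 6.23 FPKM in shNS. CRYZL1, a quinone oxidoreductase-like protein, was at 4.41 and 4.59 FPKM against 14.7 and 9.77 FPKM. The direction of both was the same with doxycycline. There DNAJC15 was at 12.9 and 13.6 FPKM against 6.76 and 5.61 FPKM, and CRYZL1 at 3.43 and 5.22 FPKM against 14.3 and 12.5 FPKM. GDA, the guanine deaminase, was at 7.05 and 2.47 FPKM against 3.53 and 0.875 FPKM. MED18, a head subunit of Mediator, was at 5.60 and 2.32 FPKM against 9.11 and 4.07 FPKM. RALA, a small GTPase, was at 21.5 and 32.8 FPKM against 13.2 and 20.9 FPKM, and MAP2K4, a kinase of the JNK pathway, at 11.4 and 13.9 FPKM against 17.8 and 24.3 FPKM.

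A few of these genes are neighbours. RNASE1, a secreted ribonuclease on chromosome 14 (21269515 to 21271036), was at 11.4 and 6.0003 FPKM against 5.50 and 3.23 FPKM, and lies near ANG. Among the 15 measured genes within 500 kb of ANG, RNASE1 was the 1 past 1.5-fold, and the medians of the 15 were 0.10 and 0.03. CRIP1, a LIM domain protein, and TEDC1, of the centriolar tubulin complex, lie side by side on chromosome 14 (105953257 to 105955124 and 105956192 to 105965585). CRIP1 was at 1.04 and 0.525 FPKM against 3.11 and 1.73 FPKM, and TEDC1 at 1.79 and 0.996 FPKM against 3.38 and 2.14 FPKM. Outside the 38, the imprinted neighbours ZNF597 and NAA60 of chromosome 16 were both above 0. ZNF597 was at 2.65 and 13.3 FPKM against 1.91 and 6.58 FPKM, and NAA60 at 8.74 and 3.84 FPKM against 6.72 and 2.67 FPKM. Over all 20 measured imprinted genes the medians were 0.00 and 0.00.

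The doxycycline libraries held most of the larger differences again. Each shares its line and table with its untreated partner, so a difference that comes from either would recur here. Of the 11 genes past 2-fold, 10 had the same direction on both days there and 9 were again past 2-fold on both days, 5 of 7 higher and 4 of 4 lower. Among all 12428 genes, 18 (0.145%) were past 2-fold on both days in the doxycycline libraries, 9 higher (0.0724%) and 9 lower (0.0724%), and 31.4% lay above and 31.4% below 0 on both days. Of the 38 genes past 1.5-fold, 29 had the same direction and 21 were again past 1.5-fold, 11 higher and 10 lower. In the doxycycline libraries 71 genes (0.571%) were past 1.5-fold higher and 35 (0.282%) lower. CDC37L1-DT, the divergent transcript of CDC37L1, was at 4.93 and 13.0 FPKM in untreated shEXOSC3 and at 2.34 and 6.12 FPKM in shNS. With doxycycline CDC37L1-DT was at 6.09 and 20.9 FPKM against 2.71 and 9.85 FPKM. Its centred differences were thus 0.81 and 0.96 without and 0.94 and 1.01 with doxycycline. STX17-DT, also a divergent transcript, went the other way without doxycycline, with -0.83 and -0.79, and had 0.41 and 0.15 with it.

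SNHG9, the host of a small nucleolar RNA, was the 1 gene of the 38 past 1.5-fold in the opposite direction on both days with doxycycline. It was at 9.30 and 2.92 FPKM in untreated shEXOSC3 and at 15.6 and 6.89 FPKM in shNS, and with doxycycline at 23.1 and 6.34 FPKM against 14.7 and 3.10 FPKM. VDAC1, the channel of the mitochondrial outer membrane, ranged from 1.34 to 96.2 FPKM over the 8 libraries, with 96.2 and 7.23 FPKM in untreated shEXOSC3 and 59.7 and 1.38 FPKM in shNS. With doxycycline VDAC1 was at 49.2 and 1.34 FPKM against 58.4 and 31.6 FPKM, so its direction differed between the sets. STX17-DT and IQCH-AS1, noncoding transcripts at 0.823 and 0.966 FPKM and at 0.916 and 0.721 FPKM in untreated shEXOSC3, were at 2.21 and 2.34 FPKM and at 2.80 and 1.95 FPKM in shNS. With doxycycline, both were above 0 on both days.

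The gene lists without short RNAs had medians between -0.19 and 0.43. For the counts here and in the lists below, 24.5% of all measured genes were above 0 and 24.5% below it on both days. Of 25 p53 target genes, 11 were above 0 and 3 below it on both days, and 11 changed side, with medians of 0.06 and 0.15 and 0 past 1.5-fold. CDKN1A, the cell cycle inhibitor p21, was at 29.3 and 20.4 FPKM in shEXOSC3 and at 27.0 and 14.8 FPKM in shNS. PLK3, a stress-responsive kinase, was at 2.04 and 3.15 FPKM against 1.44 and 1.91 FPKM. With doxycycline the medians of the list were 0.41 and 0.72. Of 23 S-phase genes, 14 were below 0 on both days and 1, TYMS, above, with medians of -0.04 and -0.15. MCM6, of the replicative helicase, was at 49.5 and 33.6 FPKM against 54.7 and 36.9 FPKM. Of 24 genes of G2 and mitosis, 8 were above and 2 below on both days, with medians of 0.06 and 0.01.

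Metallothioneins, which bind zinc and copper, had the highest list median of day 5, 0.43, and 0.25 on day 7, over 8 measured of 11. Of these, 4 were above and 1 below 0 on both days. MT1H was past 1.5-fold, with 25.05 and 27.2 FPKM in shEXOSC3 and 15.1 and 13.6 FPKM in shNS. MT1E was at 99.5 and 123 FPKM against 44.7 and 95.3 FPKM. MT1M went the other way, with 1.93 and 5.27 FPKM against 3.24 and 6.88 FPKM. With doxycycline the medians of the list were 0.05 and -0.01, and these short, similar genes can share reads.

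Nodal and TGF-beta target genes had medians of 0.06 and 0.25, with 7 of 14 above and 2 below 0 on both days. ID2, an inhibitor of bHLH factors, was at 24.5 and 31.5 FPKM against 19.3 and 21.3 FPKM, and GDF15, a secreted stress cytokine, at 11.5 and 12.7 FPKM against 8.83 and 8.72 FPKM, while FST, the activin antagonist follistatin, had -0.33 and -0.48. FOXH1, a partner of SMADs, was at 15.03 and 6.18 FPKM against 16.2 and 6.12 FPKM. BMP4, in the mesoderm list, was at 5.09 and 15.2 FPKM against 4.66 and 9.09 FPKM. In the list of hypoxia and glycolysis, 11 of 25 were above and 4 below on both days, with medians of 0.11 and 0.00. ANKRD37, a hypoxia target, was at 0.943 and 1.33 FPKM against 1.77 and 3.30 FPKM. Interferon response genes had medians of 0.08 and 0.03 over 16 of 27 measured, and the small RNA silencing machinery -0.11 and 0.03 over 17. Of 21 measured apoptosis regulators, 5 were above and 5 below 0 on both days, with medians of -0.03 and 0.06. At the ends of that list, CASP8, the initiator caspase, was at 2.70 and 2.68 FPKM against 2.15 and 0.985 FPKM, while BAD had -0.01 and -0.67.

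Antisense and LINC RNAs had medians near 0 between the untreated lines. Of 221 antisense long noncoding RNAs, 51 were above and 53 below 0 on both days, with medians of -0.06 and 0.06. Of 83 LINC genes, 23 were above and 15 below, with medians of -0.01 and 0.10, and LINC00504 was the 1 past 1.5-fold. With doxycycline the medians were 0.16 and 0.33 for antisense and 0.16 and 0.34 for LINC genes. No source used here gives the strand setting of the counting, so an antisense gene and its partner cannot be told apart. Of 434 ZNF genes, 132 were above and 91 below, with medians of -0.01 and 0.04. Of all measured genes, 24.5% were above and 24.5% below 0 on both days.

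**Figure D4:**
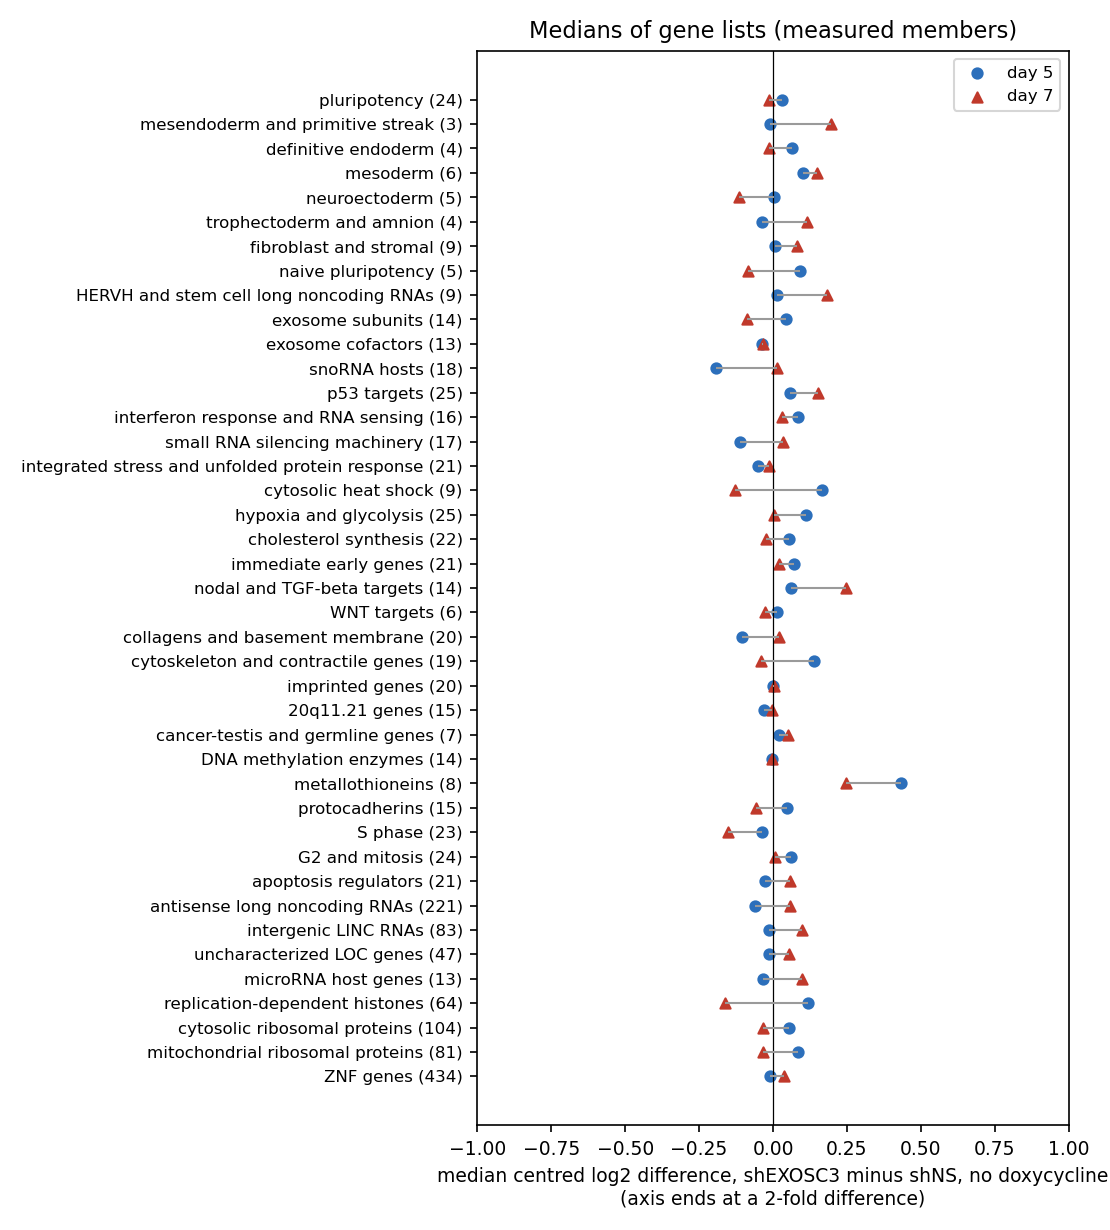
Median centred log2 difference of shEXOSC3 minus shNS (x axis) in the untreated libraries of day 5 (circles) and day 7 (triangles) for each gene list (y axis, measured members in parentheses). Every median lies well inside 2-fold, at the ends of the axis, and that of metallothioneins on day 5, 0.43, is the highest.

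Short RNA genes were left out above since their FPKM are unstable. Among small nucleolar RNAs, the H/ACA box class was lower in shEXOSC3 on day 5, while the day 7 levels were close. The H/ACA box class, which guides pseudouridylation, had 95 measured members with a median level of 40.3 FPKM in shEXOSC3 and 79.8 FPKM in shNS on day 5. On day 7 the medians were 134 and 124 FPKM. The class's median centred differences were -1.16 and -0.04, and the sum of its FPKM in shEXOSC3 was 0.517 and 0.943 times that in shNS. The sums of other short classes were lower on day 5 too, at 0.564 times for spliceosomal snRNAs, 0.656 for microRNA genes, 0.683 for C/D box and 0.811 for Cajal body RNAs, against 0.863, 1.09, 0.962 and 0.968 on day 7. Of 226 microRNA genes, 50 were past 2-fold lower and 23 higher on day 5, and 53 and 72 on day 7. Of the 95 H/ACA members, 50 were past 2-fold lower and 6 higher on day 5, against 10 lower and 13 higher on day 7. For all measured genes, which hold no short RNA genes, 0.201% were past 2-fold lower on day 5 and 0.113% on day 7. The shares past 2-fold higher were 0.121% and 0.161%. H/ACA members listed at 0 numbered 21 in shEXOSC3 and 8 in shNS on day 5, and 5 and 12 on day 7. The relative depth of the untreated libraries moved the same way, 0.753 and 1.40. Between the doxycycline libraries the relative depth was 0.470 on day 5 and 0.979 on day 7, with H/ACA medians of -0.67 and 0.23. The part of depth in the difference was not tested.

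Abundant H/ACA members differed among themselves on day 5. SNORA63 was at 1390 FPKM in shEXOSC3 and 4291 FPKM in shNS on day 5, and on day 7 at 1325 and 1161 FPKM. SNORA74A was at 897 and 2634 FPKM on day 5, and on day 7 at 187 and 222 FPKM. SNORA22 went the other way on day 5, with 836 FPKM in shEXOSC3 and 411 FPKM in shNS, and SNORA12 was at 590 and 669 FPKM. SNORA73B was at 15757 and 23373 FPKM on day 5, and on day 7 at 2583 and 2609 FPKM. With doxycycline the class medians were -0.67 on day 5 and 0.23 on day 7. The Cajal body RNAs, which guide modification of spliceosomal RNAs, had medians of -0.86 and -0.01 over 24 members. SCARNA2 was at 1350 and 2266 FPKM on day 5, and on day 7 at 361 and 417 FPKM, while SCARNA7 was at 1570 and 1278 FPKM and at 352 and 417 FPKM. The C/D box class, which guides ribose methylation, could not be compared on day 5, since 101 of 144 members in shEXOSC3 and 82 in shNS were listed at 0.

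**Figure D5:**
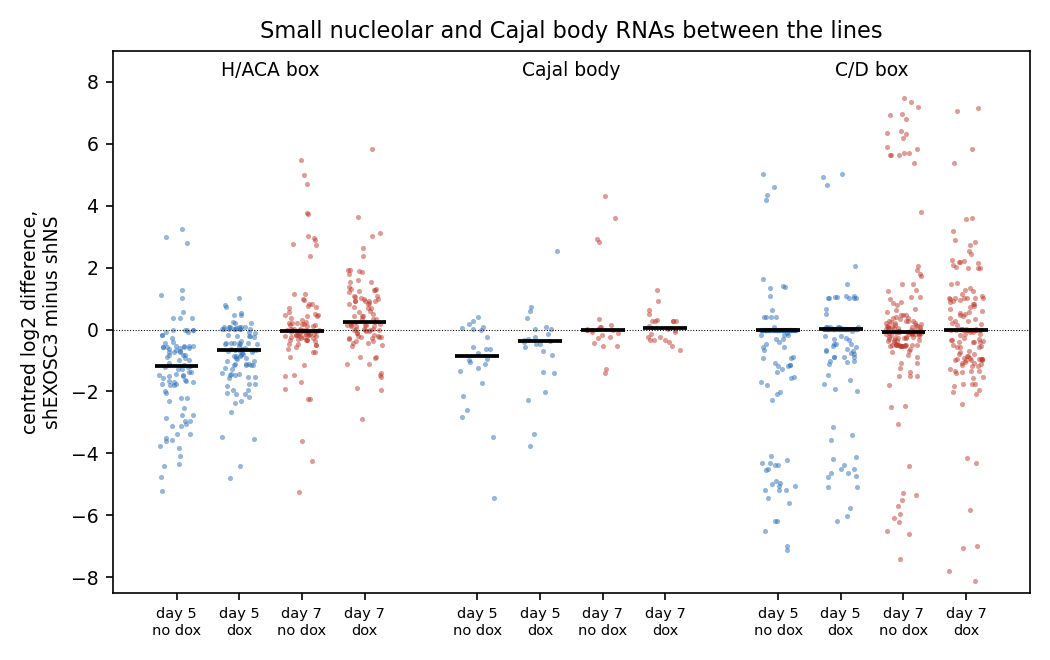
Centred log2 difference of shEXOSC3 minus shNS (y axis) for each measured H/ACA box, Cajal body and C/D box RNA, by day and doxycycline (x axis), with 1 library per line, day and treatment; bars are medians. The H/ACA medians without doxycycline are -1.16 on day 5 and -0.04 on day 7, and the far clusters of C/D box points are members listed at 0 in one line.

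Along the chromosomes the untreated lines did not separate. The medians of 23 chromosomes lay between -0.02 and 0.03 on both days. Of 439 windows of 5 Mb with at least 10 measured genes, medians ran from -0.19 to 0.15 on day 5 and from -0.12 to 0.19 on day 7, and 0 reached 1.5-fold (0.585 on the log2 scale), the size of a gain of 1 copy. The highest mean was in a window of chromosome 3 (170000001 to 175000000) that holds SKIL and ECT2, and the lowest in one of chromosome 10 (60000001 to 65000000) that holds CDK1 and JMJD1C. The 15 measured genes of 20q11.21, a segment often gained in cultured human embryonic stem cells, had medians of -0.03 and 0.00. ID1, in that segment, had 0.10 and 0.33.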

How the data were processed

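Ribosomal RNA was removed from total RNA (Ribo-Zero), spike-in RNA was added and ScriptSeq v2 libraries were made, per the labels' protocols. The submitters' processing notes name CASAVA 1.8, TopHat, Cufflinks and the build hg19 (GRCh37). No annotation, normalization option or strand setting is given in the sources used here. Per the file headers, the 4 tables deposited by the authors hold FPKM of 49235 transcripts, with 1 untreated and 1 doxycycline library per table. Locus starts were moved by 1 to count from 1. The gene positions given on hg19 are these listed loci, which can span more than the named gene.

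Accessions were matched to current symbols through RefSeq (97.8% matched; 1088 did not). FPKM were summed per symbol with Python 3.11.15 and pandas 2.3.3. Genes were left out if a transcript had a failed or too deep estimate (164 transcripts) or was placed differently among tables (13 transcripts). Also left out were genes of the Y chromosome, genes with a mean below 1 FPKM and short RNA genes. Short RNA genes were those under 300 bases by locus or RefSeq length, and those of a small RNA type or symbol at any length. The pseudocount was 1 FPKM. The medians subtracted were 0.0127 on day 5 and 0.0209 on day 7. A gene was called by size alone, at 2-fold on both days in 1 direction, or at 1.5-fold. Named genes were the exosome subunits, POU5F1, NANOG, SOX2 and FOXH1, the genes past 2-fold, up to 2 members at each end of a list and the end windows with their genes. CHCHD10, RNASE4, genes between 1.5-fold and 2-fold, cell markers, list members other than the ends and single small RNAs were added after their values were seen. The members and lists were chosen with earlier results of these data known. Alternatives were another centring, pseudocount, minimum, transcript choice, size limit and single days. The calculation was tested on simulated data.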

Additional observations from a re-analysis of the deposited data

Results flagged for a closer look

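For 6 genes the untreated lines were past 1.5-fold apart in opposite directions on the days, lower in shEXOSC3 on day 5 and higher on day 7; the difference between days was not tested. The change in centred difference from day 5 to day 7 was 2.00 for GPAT4-AS1, an antisense RNA at 0.346 and 1.57 FPKM (shEXOSC3 and shNS) on day 5 and 2.08 and 0.468 FPKM on day 7. It was 1.82 for USP12-AS1, at 0.529 and 2.36 FPKM on day 5 and 9.76 and 5.65 FPKM on day 7. RUNX2, a transcription factor of bone formation, gave 1.71, with 0.377 and 1.65 FPKM on day 5 and 4.50 and 2.22 FPKM on day 7. GOLGA8B gave 1.48, ERI3-IT1 1.43 and CALCB, a calcitonin-related peptide, 1.23. All 6 were below 2 FPKM in shEXOSC3 on day 5, and the relative depth of the shEXOSC3 library was 0.753 on day 5 and 1.40 on day 7, whose part was not tested. With doxycycline, 0.17 and -0.996 were found for RUNX2 and 0.65 and 0.42 for USP12-AS1.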

How the results depend on the processing

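The limits are 1 library per group, separate tables and unknown total depth. The counts of genes past 2-fold on both days (7 higher, 4 lower) were the same without centring, and 6 and 4 with upper quartile scaling, 7 and 5 with no minimum and 5 and 4 with single-transcript genes. With a pseudocount of 0.5 FPKM they were 7 and 7, with 5 FPKM 1 and 2, and with a minimum mean of 5 FPKM 4 and 2. With the transcript of the highest mean in place of the sum they were 24 and 18, among which 6 and 4 were those reported. With short RNA genes included they were 16 and 25, and with short genes left out by the tables' locus alone, an alternative chosen after seeing the data, 13 and 22. Day 5 alone gave 15 and 25, day 7 alone 20 and 14, and 1.5-fold 19 and 19. Requiring the doxycycline libraries too, also chosen after seeing the data, left 21 of 38 genes past 1.5-fold. EXOSC3, at a mean of -0.20, stayed between -0.27 and -0.125 under every alternative run for it. Of 99 alternative values of list medians 9 moved, by at most 0.0697. Of 33 values of the 11 genes, 12 moved and 0 changed direction, and 3 genes stayed past 2-fold at a pseudocount of 5 FPKM. Each difference was formed within a day, and no further pairing was possible with 1 library per group. A fit of line and day over the 4 libraries was not run, since their tables were normalized separately.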
